A study of Homo sapiens with 10 samples.

Results

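The MAP kinase phosphatases are 10 members of the dual-specificity phosphatase family: DUSP1, DUSP2, DUSP4, DUSP5, DUSP6, DUSP7, DUSP8, DUSP9, DUSP10 and DUSP16. They were taken by gene symbol from the deposited tables, which list 58676 genes, and all 10 were found and passed the filter on low counts, as did 16936 genes in all. The family was taken up because DUSP8 and DUSP1 were already known from these data to stand high with BRSK2, so the values of the members with either kinase against the controls are a description, and no support is drawn from them. The study sequenced RNA of HEK293T, a cell line derived from human embryonic kidney, in 10 libraries. BRSK2 was overexpressed in 3 libraries and BRSK1 in 3, both AMPK-related serine/threonine kinases best known from neurons. The controls were 2 libraries with hcRED, a red fluorescent protein (replicates 1 and 3), and 2 mock libraries, Mock (replicates 2 and 3). Overexpression lasted 24 h for BRSK2, BRSK1 and hcRED, while no time is given for Mock. All groups share the cell line and its medium, while the sources used here do not give the vector, its promoter or the treatment of the mock cells. The labels do not say whether replicates were separate cultures, so p-values measure the spread between these libraries, which may be technical.

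MAP kinase phosphatases remove phosphate from both the threonine and the tyrosine of the activation loop of ERK, JNK and p38 kinases and so switch these kinases off. Several of them are immediate-early genes that the same pathways induce, which makes them feedback inhibitors with short-lived transcripts. By textbook class, DUSP1, DUSP2, DUSP4 and DUSP5 are nuclear and inducible, DUSP6, DUSP7 and DUSP9 are cytoplasmic and prefer ERK, and DUSP8, DUSP10 and DUSP16 prefer JNK and p38.

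Total counts per library lay between 16516116 and 24304302. The overexpressed transcripts followed the labels: BRSK2 took 6.99, 9.08 and 10.4% of all counts in BRSK2 replicates 1, 2 and 3, against at most 0.0099% in any other library, and BRSK1 took 4.72, 6.52 and 6.96% in BRSK1 replicates 1, 2 and 3, against at most 0.0029% elsewhere. All 5 genes used as markers of the HEK293 line were present in every library, with NEFM between 127 and 186 CPM (reads of the gene relative to the TMM-scaled total of the library) and PAX2 between 2.43 and 5.73 CPM. The summed level of 12 markers of blood cells, fibroblasts, hepatocytes and keratinocytes was 98.5 CPM in BRSK1 replicate 1 and between 28.2 and 48.7 CPM in the other 9 libraries. The keratins KRT5 and KRT14 stood at 29.3 and 32.7 CPM in BRSK1 replicate 1, against at most 5.26 and 9.35 CPM elsewhere. PTPRC was at 0 in all libraries, and CD3E, TTR, DCN and ALB had at most 6 counts, while COL1A1 lay between 22.2 and 37.5 CPM and CD14 between 0.398 and 1.76 CPM. The part of these markers in the results was not tested, and values of the members without BRSK1 replicate 1 are given with the comparisons it enters.

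The sequences shown first are the 250 bases before the transcription start of the members that passed the test with BRSK2, since they differ in the motif marked here, among others. They come from RefSeq (GRCh38.p14), whose promoter table held 8 of the 10 members, and run 5′ to 3′ on the gene's strand. Capitals mark the cAMP response element (CRE) TGACGTCA, the palindrome bound by CREB and ATF factors, and its TGACG core on either strand. The windows are chr11:1572272-1572521 for DUSP8, chr5:172771196-172771445 for DUSP1 and chr12:12562864-12563113 for DUSP16, all on the minus strand.
DUSP8: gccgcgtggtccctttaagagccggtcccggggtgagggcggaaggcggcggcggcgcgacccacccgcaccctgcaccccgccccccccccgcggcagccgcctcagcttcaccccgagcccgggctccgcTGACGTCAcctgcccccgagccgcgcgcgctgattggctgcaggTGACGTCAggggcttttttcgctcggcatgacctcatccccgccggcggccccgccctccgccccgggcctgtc
DUSP1: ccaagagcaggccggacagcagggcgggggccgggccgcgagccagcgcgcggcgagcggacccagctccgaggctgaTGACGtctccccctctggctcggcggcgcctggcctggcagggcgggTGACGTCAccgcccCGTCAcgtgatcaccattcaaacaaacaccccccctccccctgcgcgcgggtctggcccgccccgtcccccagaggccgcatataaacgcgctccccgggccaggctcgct
DUSP16: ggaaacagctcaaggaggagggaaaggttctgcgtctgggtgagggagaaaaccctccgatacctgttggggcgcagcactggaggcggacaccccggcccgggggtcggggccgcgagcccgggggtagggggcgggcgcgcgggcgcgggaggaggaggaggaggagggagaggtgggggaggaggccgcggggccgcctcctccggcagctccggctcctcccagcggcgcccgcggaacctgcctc

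In the windows searched, which also hold the first 50 bases of the transcript, the full CRE was found at 118 and 74 bases before the start of DUSP8 and at 125 bases before the start of DUSP1, and in none of the 6 other members with a window; DUSP4 and DUSP5 had no window and were not searched. These letters were found in 1.85% of the 35116 windows in the table, and at least 2 copies in 0.0598%. Of 406 tested genes with a full CRE, DUSP8 and DUSP1 included, 7.64% were called higher and 2.46% lower with BRSK2. Of 10500 tested genes with a window but no full CRE, 5.47% were called higher and 3.68% lower. With BRSK1 the shares were 5.42% and 3.94% with a full CRE, and 4.25% and 3.07% without. The part of the CRE in the values of DUSP8 and DUSP1 was not tested. The TGACG core, searched on both strands, had 4 matches in DUSP8 and 4 in DUSP1, of which each full CRE holds 2, and 1 in DUSP10, against 24.6% of all windows with any. DUSP1 also held an E-box, CACGTG, 108 bases before its start, which overlaps its last TGACG core, and a TATA box, TATAAA, 30 bases before it. The E-box was in 7.26% of all windows and TATAAA in 11.5%. DUSP2 held an E-box 113 bases before its start, and DUSP9 an NF-kB site at its start, a motif present in 5.91% of windows. The AP-1 site TGACTCA, in 4.95% of all windows, and the CArG box bound by SRF, in 1.29%, were in none of the 8 members searched. A match says only that the letters are there. The RefSeq start equals the gene start in the deposited tables for DUSP1, and lies 351 bases outside it for DUSP8 and 480 bases for DUSP16.

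Gene positions in the deposited tables are on hg38. DUSP8 (ENSG00000184545) spans chr11:1554044-1571920 on the minus strand, and its transcript with the longest coding sequence in GENCODE 29 has 7 exons. DUSP1 (ENSG00000120129) spans chr5:172768090-172771195 on the minus strand with 4 exons. DUSP16 (ENSG00000111266) spans chr12:12474210-12562383 on the minus strand with 7 exons. The pentamer ATTTA, the core of AU-rich elements that mark short-lived transcripts, occurred 4 times in the 672 bases of the DUSP1 3′ UTR, or 5.95 per kb, the highest density among the members. DUSP2 followed with 4.57 per kb and DUSP10 with 3.04, while DUSP16 had 1.91, DUSP8 1.62 and DUSP4 1.51 per kb. DUSP9 had 0.987 and DUSP6 0.495 per kb, and DUSP5 and DUSP7 had none. The median over 12623 tested coding genes was 1.66 per kb.

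Per length, DUSP9, DUSP1, DUSP7 and DUSP16 stood above DUSP2, DUSP5, DUSP10, DUSP4 and DUSP6 in every group, and DUSP8 lay between these sets in the controls. In the 4 control libraries the level of DUSP9 lay between 15.6 and 18.9 CPM per kb and that of DUSP1 between 12.4 and 12.8 CPM per kb. DUSP7 (10.3 to 10.7) and DUSP16 (9.24 to 10.5 CPM per kb) overlapped, and DUSP8 was lower, at 3.14 to 5.55 CPM per kb. DUSP2 (1.24 to 2.04) and DUSP5 (1.37 to 1.76 CPM per kb) overlapped each other, as did DUSP10 (0.578 to 0.807) and DUSP4 (0.355 to 0.600 CPM per kb). DUSP6, the classic ERK feedback phosphatase, was last, with 0.033 to 0.107 CPM per kb. In BRSK2 libraries DUSP1 came first in that order, at 22.5 to 30.3 CPM per kb, above DUSP9 at 16.6 to 17.8 CPM per kb, and DUSP8, at 8.66 to 11.1 CPM per kb, overlapped DUSP7 at 10.5 to 10.8 CPM per kb. In BRSK1 libraries DUSP1, at 15.9 to 18.3, overlapped DUSP9, at 15.3 to 19.1 CPM per kb, and DUSP8, at 6.51 to 9.97 CPM per kb, overlapped DUSP7, at 9.56 to 10.2 CPM per kb.

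**Figure D1:**
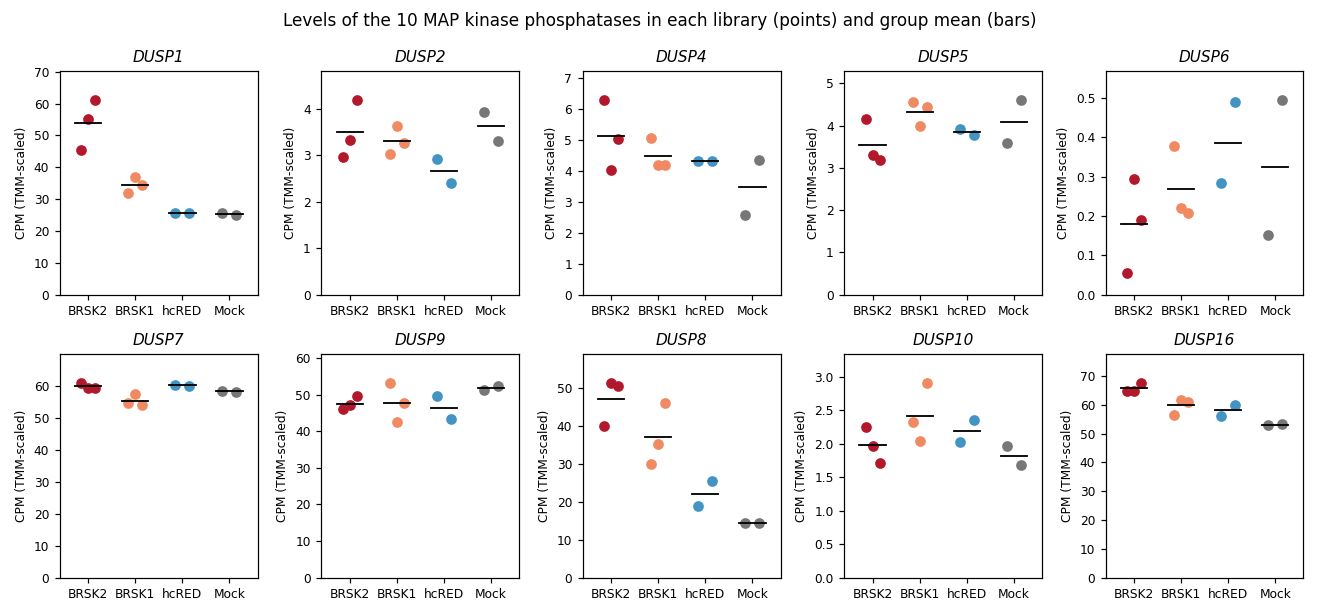
Level of each of the 10 phosphatases in CPM (TMM-scaled) in each library, as points, with the group mean as a bar, for BRSK2 (n = 3), BRSK1 (n = 3), hcRED (n = 2) and Mock (n = 2). DUSP1 and DUSP8 are higher in every BRSK2 and every BRSK1 library than in any control library, while DUSP6 lies under 0.5 CPM throughout.

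DUSP1, a nuclear phosphatase of p38, JNK and ERK and the founding member of the family, had 45.4, 55.0 and 61.1 CPM in the BRSK2 libraries, 32.0, 36.9 and 34.5 CPM in the BRSK1 libraries, 25.7 and 25.6 CPM in the hcRED libraries and 25.7 and 25.1 CPM in the Mock libraries. Its groups did not overlap between BRSK2, BRSK1 and the controls, and the 4 control libraries lay within 1 CPM of each other. The means were 53.9 ± 7.93 CPM with BRSK2 and 34.5 ± 2.46 CPM with BRSK1 (SD, n = 3 each), against 25.7 ± 0.0821 CPM with hcRED and 25.4 ± 0.454 CPM with Mock (SD, n = 2 each). The log2 fold change was 1.07 ± 0.09 (SE) with BRSK2 and 0.43 ± 0.09 with BRSK1, each against the mean of hcRED and Mock. Against hcRED alone the BRSK1 value was 0.43 and no longer passed. Without BRSK1 replicate 1 it was 0.48 ± 0.10 and passed.

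DUSP8, a phosphatase of JNK and p38 known mainly from brain and heart, had 40.0, 51.3 and 50.4 CPM in the BRSK2 libraries, 30.1, 35.2 and 46.0 CPM in the BRSK1 libraries, 18.8 and 25.6 CPM in the hcRED libraries and 14.5 and 14.5 CPM in the Mock libraries. All kinase libraries were above all controls, the BRSK2 and BRSK1 libraries overlapped, and both hcRED libraries were above both Mock libraries. Its log2 fold change was 1.40 ± 0.16 with BRSK2 and 1.05 ± 0.16 with BRSK1. Since hcRED and Mock stood apart, the value moved with the control: with BRSK2 it was 1.09 against hcRED alone and 1.70 against Mock alone, and with BRSK1 0.74, which no longer passed, and 1.36. Without BRSK1 replicate 1 the BRSK1 value was 1.18 ± 0.13 and passed. DUSP8 shares 1.94% of its 50-base windows with the annotated pseudogenes DUSP8P3, DUSP8P4 and DUSP8P5. The only pseudogene of these with more than 5 counts in a library, DUSP8P5, had 3.67, 5.36 and 3.75 CPM with BRSK2, 3.17, 3.19 and 4.90 CPM with BRSK1, 2.87 and 3.48 CPM with hcRED and 2.42 and 2.33 CPM with Mock, and did not pass the test with BRSK2 (log2 fold change 0.64 ± 0.21).

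DUSP16, a phosphatase that prefers JNK, had 64.7, 64.8 and 67.4 CPM in the BRSK2 libraries, 56.5, 61.5 and 61.1 CPM in the BRSK1 libraries, 56.0 and 59.98 CPM in the hcRED libraries and 52.9 and 53.1 CPM in the Mock libraries. The BRSK2 libraries were above all others, and the BRSK1 libraries overlapped hcRED. Its log2 fold change was 0.24 ± 0.06 with BRSK2. With BRSK1 it was 0.11 ± 0.06, or 0.15 ± 0.07 without BRSK1 replicate 1, and did not pass. The BRSK2 call was lost with library totals alone (0.14), against hcRED alone (0.18), and without BRSK2 replicate 2 (0.26), BRSK2 replicate 3 (0.22), hcRED replicate 1 (0.22) or Mock replicate 3 (0.24).

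The 7 other members did not pass the test with either kinase. Among the nuclear phosphatases, DUSP2, which is induced in activated immune cells, had 2.96, 3.34 and 4.20 CPM with BRSK2, 3.03, 3.63 and 3.28 CPM with BRSK1, 2.92 and 2.40 CPM with hcRED and 3.94 and 3.32 CPM with Mock. DUSP4 had 6.30, 4.03 and 5.03 CPM with BRSK2, 5.07, 4.21 and 4.19 CPM with BRSK1, 4.33 and 4.31 CPM with hcRED and 2.57 and 4.36 CPM with Mock. DUSP5, which is selective for ERK, had 4.16, 3.30 and 3.18 CPM with BRSK2, 4.55, 3.98 and 4.44 CPM with BRSK1, 3.91 and 3.77 CPM with hcRED and 3.58 and 4.60 CPM with Mock. In all 3 genes the kinase libraries overlapped the controls. With BRSK2 the log2 fold changes were 0.16 ± 0.20 for DUSP2, 0.40 ± 0.20 for DUSP4 and -0.16 ± 0.18 for DUSP5, and with BRSK1 0.09 ± 0.19, 0.21 ± 0.19 and 0.12 ± 0.18 in the same order.

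Of the cytoplasmic ERK phosphatases, DUSP6 had 1, 6 and 3 counts in the BRSK2 libraries, 8, 5 and 5 in the BRSK1 libraries, 6 and 10 in the hcRED libraries and 3 and 10 in the Mock libraries, so a difference of the size seen in DUSP1 was not detectable at this depth (log2 fold change -0.93 ± 0.70 with BRSK2 and -0.40 ± 0.63 with BRSK1). It also shares 36.4% of its 50-base windows with AC024909.2, a separate gene in GENCODE 29. Of the DUSP6 counts, only those of hcRED replicate 3 and Mock replicate 3 reached 10, the minimum count of the filter. No direction is therefore read from the DUSP6 values. DUSP7 had 60.7, 59.3 and 59.1 CPM with BRSK2, 54.6, 57.5 and 54.0 CPM with BRSK1, 60.2 and 60.0 CPM with hcRED and 58.4 and 58.1 CPM with Mock. Its BRSK1 libraries were below all others, by a small step that did not pass the test (-0.10 ± 0.06), and with BRSK2 the value was 0.01 ± 0.06. DUSP9 had 46.0, 47.0 and 49.5 CPM with BRSK2, 53.1, 42.4 and 47.7 CPM with BRSK1, 49.5 and 43.2 CPM with hcRED and 51.2 and 52.4 CPM with Mock, with the kinase libraries inside the range of the controls or overlapping it (-0.05 ± 0.08 with BRSK2 and -0.04 ± 0.08 with BRSK1). DUSP10, the remaining JNK and p38 phosphatase, had 2.25, 1.97 and 1.72 CPM with BRSK2, 2.32, 2.04 and 2.91 CPM with BRSK1, 2.03 and 2.35 CPM with hcRED and 1.97 and 1.68 CPM with Mock. Its kinase libraries overlapped the controls too (-0.01 ± 0.24 with BRSK2 and 0.28 ± 0.23 with BRSK1). Without BRSK1 replicate 1 the BRSK1 values were 0.15 for DUSP2, 0.12 for DUSP4, 0.09 for DUSP5, -0.71 for DUSP6, -0.09 for DUSP7, -0.12 for DUSP9 and 0.31 for DUSP10, and none of the 7 passed.

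In all, edgeR's quasi-likelihood test called 3 of 10 members higher with BRSK2 and 0 lower, where 4.77% of all tested genes were called higher and 3.05% lower. With BRSK1 it called 2 of 10 higher and 0 lower, where the shares over all genes were 3.77% and 2.66%, and against hcRED alone it called 0. By class, the 3 calls with BRSK2 were 1 of 4 nuclear members, 0 of 3 cytoplasmic members (0 also at an unadjusted p under 0.05 and by DESeq2 and limma-voom) and 2 of 3 JNK and p38 phosphatases. The libraries lay fully above all controls for 3 members with BRSK2 and 2 with BRSK1, against 9.09% and 9.93% of all genes, and fully below for 0 with BRSK2 and 1 (DUSP7) with BRSK1, against 8.2% and 8.44%. The median log2 fold change of the 10 members was 0.09 with BRSK2 and 0.12 with BRSK1, and 0.00 over all genes in each. By log2 fold change among 16936 genes with BRSK2, DUSP8 was number 117 from the top and DUSP1 number 250; with BRSK1 they were numbers 228 and 1408. Since the family was chosen on such values, nothing is read from these shares. Both kinases were set against the same 4 controls. The authors' deposited table for BRSK2 lists DUSP8 at a log2 fold change of 1.40, DUSP1 at 1.07 and DUSP16 at 0.25, and the authors' deposited table for BRSK1 lists DUSP8 at 1.04 and DUSP1 at 0.44.

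**Figure D2:**
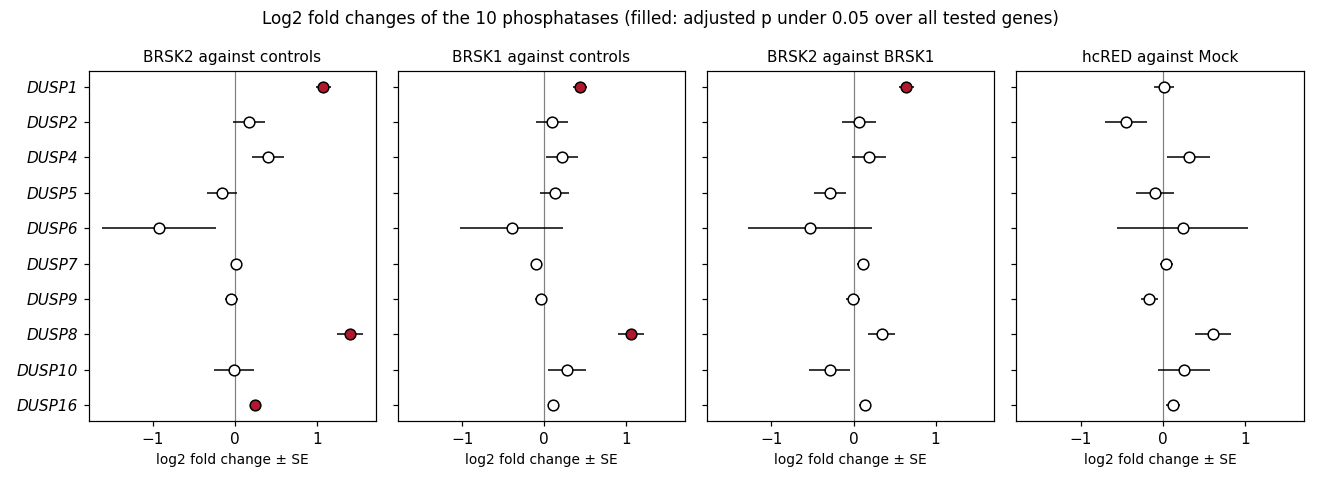
Log2 fold change of each phosphatase with its SE as a bar in 4 comparisons, where filled points have an adjusted p under 0.05 over all tested genes and the controls are the mean of hcRED and Mock. DUSP1, DUSP8 and DUSP16 are filled for BRSK2 against the controls, DUSP1 and DUSP8 for BRSK1 against the controls, DUSP1 for BRSK2 against BRSK1, and no member for hcRED against Mock.

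BRSK2 and BRSK1 were then compared with each other. This comparison does not use the controls, but it shares the BRSK2 libraries with the contrast on which the family was taken up. The groups also differ in the level of the overexpressed transcript, which took 6.99 to 10.4% of counts with BRSK2 and 4.72 to 6.96% with BRSK1. The part of this level in the differences below was not tested. DUSP1 was higher with BRSK2 than with BRSK1 by 0.64 ± 0.09 on the log2 scale (edgeR's quasi-likelihood test, adjusted p = 0.000944), in 3 of 3 libraries. It was the only member called, where 0.23% of all genes were called higher and 0.118% lower. The DUSP1 call held in all 20 alternatives, with values between 0.55 and 0.75, and was 0.59 (adjusted p = 0.0241) without BRSK1 replicate 1. The difference for DUSP8 was 0.35 ± 0.16 and did not pass (adjusted p = 0.429 by edgeR's quasi-likelihood test), which does not show that the kinases act alike on it. That value was 0.22 without BRSK1 replicate 1 and 0.53 without BRSK1 replicate 3, neither past the threshold. DUSP8 did pass in the fit with no filter on low counts (adjusted p = 0.0365) and with the replicate number as a block (adjusted p = 0.0230). DUSP16 and DUSP7 also had their 3 BRSK2 libraries above all BRSK1 libraries, as did 8.65% of all genes, and 0 members lay fully below, as did 9.02% of all genes. DUSP16 and DUSP7 showed differences of 0.14 ± 0.07 and 0.11 ± 0.07 that did not pass (adjusted p = 0.425 and 0.517 by edgeR's quasi-likelihood test). The other 6 members overlapped, with differences between -0.53 ± 0.76 for DUSP6 and 0.19 ± 0.21 for DUSP4. Without BRSK1 replicate 1 these 6 lay between -0.32 for DUSP10 and 0.28 for DUSP4, and DUSP16 and DUSP7 were each at 0.10, none past the threshold.

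The controls were compared with each other, a comparison that the choice of members did not use. No member passed between hcRED and Mock in edgeR's quasi-likelihood test, where 0.0295% of all genes did, and 0 passed with DESeq2 and limma-voom. At an unadjusted p under 0.05, for which no share over all genes is given here, there was 1 member. That 1 was DUSP8, at 0.61 ± 0.22 (adjusted p = 0.460 by edgeR's quasi-likelihood test), higher in both hcRED libraries than in both Mock libraries. The value was 0.82 without hcRED replicate 1 and 0.37 without hcRED replicate 3, neither past the threshold. It passed with no filter (adjusted p = 0.00126) and with the replicate block (adjusted p = 0.00110). DUSP1 differed by 0.01 ± 0.12, DUSP16 by 0.13 ± 0.08 and DUSP2 by -0.44 ± 0.26. Libraries lay fully above in 4 members (DUSP7, DUSP8, DUSP10 and DUSP16) and fully below in 2 (DUSP2 and DUSP9), against 20% and 20.3% of all genes.

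**Figure D3:**
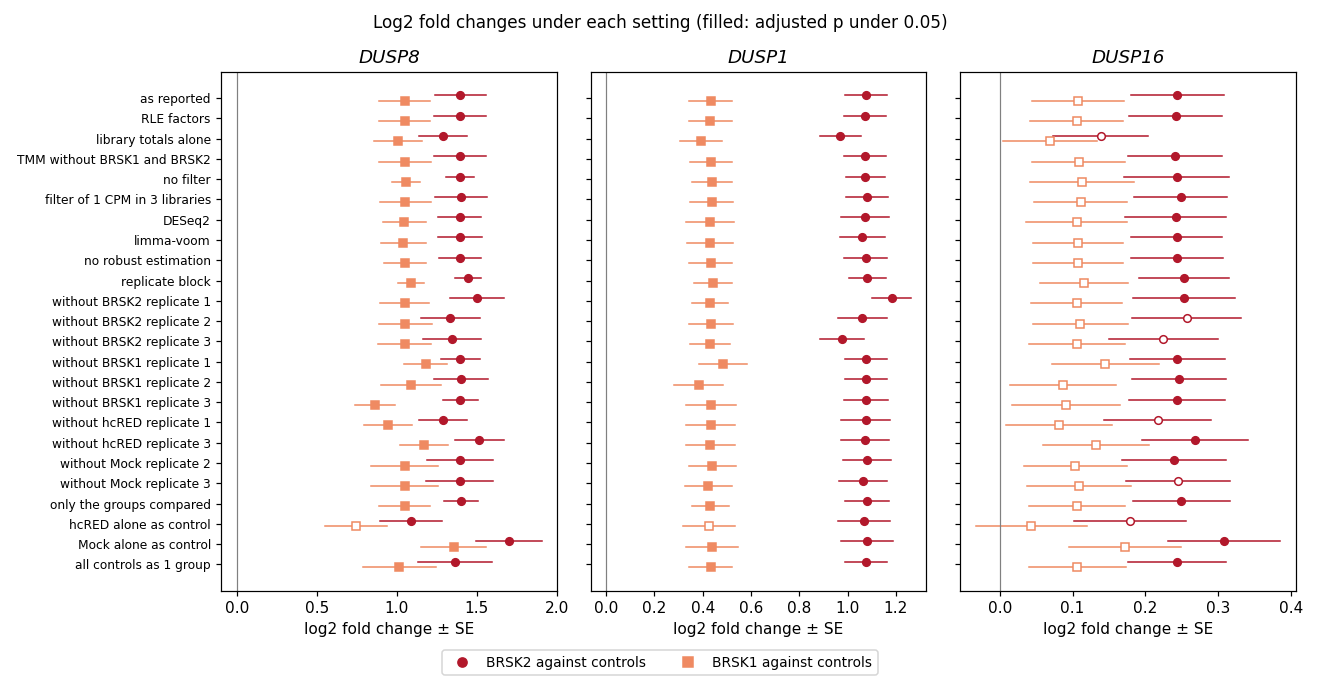
Log2 fold changes of DUSP8, DUSP1 and DUSP16 with SE bars under each processing setting, for BRSK2 (circles) and BRSK1 (squares) against the controls, with filled symbols at an adjusted p under 0.05. DUSP8 and DUSP1 with BRSK2 stay filled throughout, at 1.09 to 1.70 and 0.97 to 1.18, while with BRSK1 both are open against hcRED alone and DUSP16 with BRSK2 is open in 6 settings.

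Across the 10 libraries the levels of DUSP8, DUSP1 and DUSP16 ran together: Pearson's r of log2 CPM was 0.93 for DUSP8 with DUSP16, 0.89 for DUSP1 with DUSP16 and 0.87 for DUSP1 with DUSP8. All other member combinations lay between -0.54 and 0.54. These values describe 10 libraries in 4 groups, and the difference between the groups is part of each. Among 11072 other genes with a mean of at least 5 CPM, those most like DUSP8 were ZC3H12A (r = 0.989), SHC2 (0.982), SMAD7 (0.980), VPS11 (0.980) and ABTB1 (0.978). ZC3H12A encodes an RNase that degrades inflammatory mRNAs, and SMAD7 an inhibitor of TGF-beta signalling. Those most like DUSP1 were ZNF408 (r = 0.981), SLC13A3 (0.975), POLR3D (0.974), UNK (0.974) and ZNF581 (0.973). The genes most like DUSP6 were CDKN3 (r = 0.891), LITAF (0.879), FBXO11 (0.861), FAM133B (0.859) and SOCS5 (0.857), from a gene with 1 to 10 counts.

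Other genes of the same pathways were counted by list. Each count of calls stands against the shares over all genes, 4.77% higher and 3.05% lower with BRSK2 and 3.77% and 2.66% with BRSK1. Counts at an unadjusted p under 0.05 have no such share here, so nothing is read from them. Of the kinases at the top of the cascades, 5 of 23 tested MAPK kinase kinases rose with BRSK2 and 0 fell, with a list median of 0.04. DESeq2 called 6 and limma-voom 3 of them, and leaving out single libraries gave 2 to 7. MAP3K14, the NF-kB inducing kinase, had 11.8, 10.9 and 10.8 CPM with BRSK2, 9.38, 8.90 and 10.1 CPM with BRSK1, 7.87 and 8.72 CPM with hcRED and 6.76 and 5.84 CPM with Mock. It was above all controls in both kinase groups, with a log2 fold change of 0.62 ± 0.12 with BRSK2 (edgeR's quasi-likelihood test, adjusted p = 0.00283), which was 0.43 (adjusted p = 0.114) against hcRED alone. MAP3K10, a mixed-lineage kinase upstream of JNK, rose by 0.37 ± 0.08 (edgeR, adjusted p = 0.00348), a call kept in every alternative. MAP3K12, also upstream of JNK, rose by 0.49 ± 0.14 (edgeR, adjusted p = 0.0277). The remaining calls were MAP3K15 (0.45 ± 0.13), whose BRSK2 libraries overlapped the controls, and MAP3K3 (0.25 ± 0.07). MAP3K12, MAP3K15 and MAP3K3 each lost the call when single libraries were left out, down to 0.34 without BRSK2 replicate 3 for MAP3K12, to 0.34 without the same library for MAP3K15 and to 0.18 without it for MAP3K3. MAP3K15 and MAP3K3 also lost it in limma-voom and with library totals alone (0.35 and 0.14), MAP3K12 and MAP3K3 against hcRED alone (0.40 and 0.27), MAP3K15 and MAP3K3 against Mock alone (0.27 and 0.22), MAP3K3 with no robust estimation, and MAP3K15 with all controls as 1 group. With BRSK1, 0 of 23 passed in edgeR's test, DESeq2 or limma-voom, and 6 had an unadjusted p under 0.05. MAP3K14 (0.39 ± 0.12) and MAP3K11 (-0.20 ± 0.07) each passed with BRSK1 in 4 of 23 alternatives, among them the replicate block (0.39 and -0.21).

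One step down, MAP2K7, an activator of JNK, had 117, 120 and 123 CPM with BRSK2, 92.0, 97.7 and 99.7 CPM with BRSK1, 96.4 and 77.6 CPM with hcRED and 107 and 89.0 CPM with Mock. The BRSK2 libraries were above all others, and it rose by 0.38 ± 0.07 (edgeR's quasi-likelihood test, adjusted p = 0.00224), or 0.29 (adjusted p = 0.0511) against Mock alone. MAP2K6, an activator of p38, had 22.6, 17.1 and 14.7 CPM with BRSK2, 22.9, 19.7 and 21.8 CPM with BRSK1, 28.4 and 23.5 CPM with hcRED and 29.3 and 37.5 CPM with Mock. All kinase libraries were below all controls, and it fell by 0.70 on the log2 scale (SE 0.13; edgeR, adjusted p = 0.0031) with BRSK2 and by 0.46 (SE 0.12; adjusted p = 0.0372) with BRSK1. Against hcRED alone neither value passed (-0.51, adjusted p = 0.0700, and -0.27, adjusted p = 0.420), and the BRSK1 call was also lost without BRSK2 replicate 2, without any single BRSK1 replicate and without hcRED replicate 1 or Mock replicate 3 (-0.50 to -0.36) and with all controls as 1 group (-0.47). These were the only calls among the 7 MAPK kinases with BRSK2 and with BRSK1.

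Of the 14 MAP kinases, 0 passed with BRSK2 in edgeR's test, DESeq2 or limma-voom (1 at an unadjusted p under 0.05) and 1 rose with BRSK1. This was MAPK11, p38 beta, with 7.39, 8.02 and 6.55 CPM with BRSK2, 8.05, 6.99 and 8.80 CPM with BRSK1, 5.70 and 6.71 CPM with hcRED and 3.94 and 5.35 CPM with Mock. Its log2 fold change was 0.57 ± 0.15 with BRSK1 (edgeR, adjusted p = 0.0249) and 0.45 ± 0.15 with BRSK2 (adjusted p = 0.0689). The BRSK2 value passed with the replicate block (0.49) and against Mock alone (0.66). The BRSK1 call was lost without BRSK1 replicate 1 or 3, hcRED replicate 1 or Mock replicate 2 (0.46 to 0.56) and against hcRED alone (0.36). Downstream, 0 of 11 MAPK-activated kinases passed with BRSK2 (2 at an unadjusted p under 0.05; 0 by DESeq2 and limma-voom). With BRSK1, MKNK2, which phosphorylates eIF4E, fell by 0.27 (SE 0.06, edgeR, adjusted p = 0.00787). It had 140, 134 and 129 CPM with BRSK2, 129, 119 and 126 CPM with BRSK1, 147 and 153 CPM with hcRED and 158 and 144 CPM with Mock. All kinase libraries were below all controls. The BRSK1 call was lost without BRSK1 replicate 2 (-0.24, edgeR, adjusted p = 0.0507) and against hcRED alone (-0.27, adjusted p = 0.0595). With BRSK2 the MKNK2 value was -0.16 ± 0.06 (edgeR, adjusted p = 0.0841). That value passed with library totals alone (-0.27), with the replicate block (-0.17) and without BRSK2 replicate 1 (-0.19). Among 7 scaffolds, 13 tested atypical DUSPs and 4 other tested MAPK phosphatases, 0 passed with either kinase in edgeR's test, DESeq2 or limma-voom. At an unadjusted p under 0.05 there were 1, 1 and 1 with BRSK2 and 2, 2 and 0 with BRSK1, in that order. With library totals alone, the scaffolds LAMTOR3 (-0.37) and MAPK8IP2 (-0.20) and the atypical DUSP22 (-0.26) passed with BRSK2, and DUSP22 (-0.22) with BRSK1. LAMTOR3 with BRSK2 also passed with the replicate block (-0.26).

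The transcriptional readouts of ERK, 17 feedback inhibitors and targets, held 1 rise and 1 fall with BRSK2, where 4.77% and 3.05% of all genes did, with a list median of 0.03. At an unadjusted p under 0.05 there were 7 of 17 with BRSK2 and 5 with BRSK1. No share over all genes is given here for that threshold, so nothing is read from these counts. IER3, an immediate-early gene, had 5.91, 8.90 and 6.23 CPM with BRSK2, 5.40, 5.14 and 5.85 CPM with BRSK1, 4.10 and 2.99 CPM with hcRED and 5.05 and 3.07 CPM with Mock. All kinase libraries were above all controls, and it rose by 0.89 ± 0.19 with BRSK2 (edgeR's quasi-likelihood test, adjusted p = 0.00491), a call lost without BRSK2 replicate 2 (0.68, adjusted p = 0.0703). CCND1, cyclin D1, fell by 0.37 (SE 0.11; edgeR, adjusted p = 0.0328) with BRSK2 and lost the call without BRSK2 replicate 2 or 3, hcRED replicate 1 or either Mock library (-0.38 to -0.32), against hcRED alone (-0.33) or Mock alone (-0.41), and with only the groups compared (-0.37). With BRSK1, 0 rose and 2 fell, where 3.77% and 2.66% of all genes did, with a list median of -0.12 and 1 call by DESeq2 and 2 by limma-voom: SPRED2, an inhibitor of the Ras to Raf step (-0.32 ± 0.09; edgeR, adjusted p = 0.0291), and ETV1, an ETS factor (-0.75 ± 0.22; edgeR, adjusted p = 0.0399). ETV1 had 2.03, 2.61 and 1.72 CPM with BRSK2, 2.51, 2.04 and 1.62 CPM with BRSK1, 5.23 and 5.09 CPM with hcRED and 2.37 and 2.23 CPM with Mock. Its BRSK2 and BRSK1 libraries overlapped Mock and lay below hcRED. With BRSK2 ETV1 was at -0.69 ± 0.22 and did not pass (edgeR, adjusted p = 0.0580). That value passed with library totals alone (-0.79), with the replicate block (-0.75) and against hcRED alone (-1.27). With BRSK1 against Mock alone, ETV1 was at -0.17 and SPRED2 at -0.13, neither past the threshold. Both calls were also lost with all controls as 1 group (-0.87 and -0.33), without BRSK1 replicate 2 or 3, either hcRED library or Mock replicate 2, and that of ETV1 without Mock replicate 3 too (ETV1 -0.77 to -0.60, SPRED2 -0.33 to -0.27). The median of this list between hcRED and Mock was 0.37, with 0 of 17 past the threshold in edgeR's test, 5 at an unadjusted p under 0.05, 1 by DESeq2 and 0 by limma-voom.

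**Figure D4:**
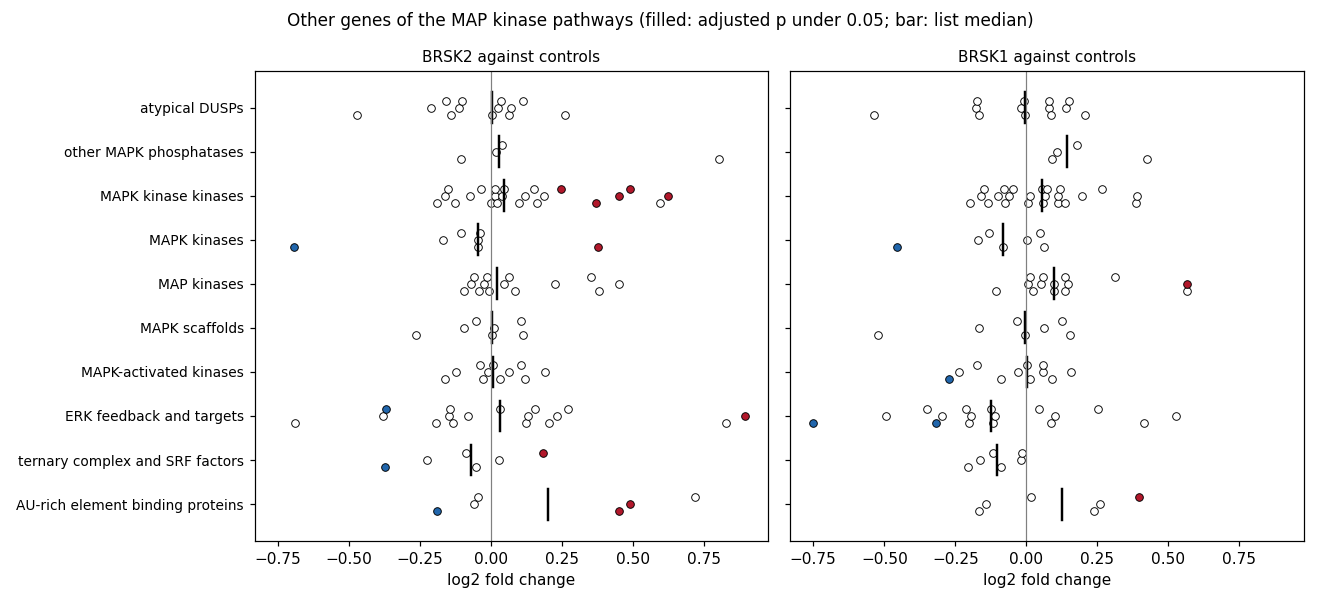
Log2 fold change of each tested gene in 10 lists of MAP kinase pathway genes with BRSK2 (left) and BRSK1 (right) against the controls, with filled points at an adjusted p under 0.05 (red higher, blue lower) and a bar at the list median. Filled points are few, with at most 5 in a list (MAPK kinase kinases with BRSK2), and the list medians lie between -0.12 and 0.20.

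Factors that act on the promoters and 3′ UTRs of immediate-early genes were examined as well. Of 6 ternary complex and SRF factors, SRF rose by 0.18 ± 0.05 (edgeR's quasi-likelihood test, adjusted p = 0.0349) and its coactivator MKL2 fell by 0.37 (SE 0.08; edgeR, adjusted p = 0.00676) with BRSK2. The SRF call was lost when any single BRSK2 or control library was left out (0.17 to 0.20), with library totals alone (0.08), with no filter (0.18) and against hcRED alone or Mock alone (0.18 each), and that of MKL2 against hcRED alone (-0.30). With BRSK1, 0 of these 6 passed in edgeR's test, DESeq2 or limma-voom, and 2 had an unadjusted p under 0.05. Of 6 proteins that bind AU-rich elements, 2 rose and 1 fell with BRSK2, where 4.77% and 3.05% of all genes did. With BRSK1, 1 rose and 0 fell, where 3.77% and 2.66% of all genes did, while DESeq2 called 3 and limma-voom 1. ZFP36L2 with BRSK1 passed with no filter (0.24) and with the replicate block (0.26), but not in the main fit. ZFP36L1, which promotes decay of AU-rich transcripts, had 54.5, 57.8 and 54.8 CPM with BRSK2, 46.1, 53.6 and 57.1 CPM with BRSK1, 38.7 and 42.6 CPM with hcRED and 40.1 and 37.6 CPM with Mock. All kinase libraries were above all controls. It rose by 0.49 ± 0.08 with BRSK2 (edgeR, adjusted p = 0.000328), a call kept in every alternative, and by 0.40 ± 0.08 with BRSK1 (adjusted p = 0.00387), a call lost without BRSK1 replicate 3 (0.33, adjusted p = 0.0527) and against hcRED alone (0.36, adjusted p = 0.0535). Its paralogue ZFP36L2 rose by 0.45 ± 0.09 with BRSK2 (edgeR, adjusted p = 0.00866), lost without BRSK2 replicate 2 or 3 (0.41 and 0.39) and against Mock alone (0.38). HNRNPD fell by 0.19 (SE 0.06; edgeR, adjusted p = 0.0387), lost without BRSK2 replicate 2 or 3 or any single control library (-0.20 to -0.17), against hcRED alone (-0.20) or Mock alone (-0.19), and with only the groups compared (-0.19). In BRSK2 against BRSK1, edgeR's test called 0 genes in each of these 10 lists, with 0 to 4 at an unadjusted p under 0.05, at most 1 by DESeq2 and 0 by limma-voom.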

How the data were processed

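RNA from 10 HEK293T libraries was analysed. The submitters' processing notes name STAR, edgeR, limma and hg38; the sources used here do not name the read counter, the strandedness of counting or the annotation. The authors deposited raw counts per gene with gene lengths in bases, in 1 table per kinase; the control columns were the same in both (0 counts differed), and both tables were merged by gene ID. They also deposited log2 CPM values, used only as a check, and tables of log2 fold changes, p-values and limma's scores, of which only log2 fold changes are quoted.

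Tests used edgeR 4.0.16 in R 4.3.3: TMM, filterByExpr (minimum count 10, minimum total 15), and glmQLFit and glmQLFTest with robust estimation, in a fit of 4 group means over all 10 libraries (biological coefficient of variation 8.06%). Contrasts were each kinase minus the mean of hcRED and Mock, BRSK2 minus BRSK1, and hcRED minus Mock. P-values were adjusted by Benjamini-Hochberg over 16936 genes, with a threshold of 0.05, and "called", "passed", "rose" and "fell" refer to it. CPM used TMM-scaled totals; per kb, the deposited length. A prior count of 2 was used for correlations of log2 CPM. SE is the absolute log2 fold change over the square root of F.

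The members and the 10 pathway lists, which with the members hold 124 symbols (0 unmatched), were chosen with earlier results of these data known. Named genes were the members, the overexpressed kinases and up to 3 genes per list with the smallest p for each kinase. Also named were the 5 genes most like each of the 3 members with the largest absolute log2 fold change with BRSK2 (DUSP8, DUSP1 and DUSP6). MAP3K3 and MAP3K15 were named after their values were seen. A few marker genes are not reported here. Promoters are RefSeq (GRCh38.p14), transcripts GENCODE 29. Overlapping opposite-strand genes had 2 to 21 counts (DUSP8), 0 to 6 (DUSP1) and 0 to 4 (DUSP16). The steps were tested on simulated data. Alternatives were RLE factors, library totals, TMM without both kinase genes, 2 other filters, DESeq2 1.42.0, limma-voom (limma 3.58.1), no robust estimation, a replicate block, each library left out, only the groups compared, and other controls. Where this left a group with 1 library, it was assumed to vary like the others. Figures used matplotlib 3.10.9.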

Additional observations from a re-analysis of the deposited data

How the results depend on the processing

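DUSP1 and DUSP8 kept their call with BRSK2 in all 23 alternatives, and the members called numbered 2 to 3. With BRSK1 the members called fell to 0 against hcRED alone (DUSP1 0.43, adjusted p = 0.0535; DUSP8 0.74, adjusted p = 0.119, both by edgeR) and were 2 in every other alternative. Between BRSK2 and BRSK1, 2 members passed with no filter and with the replicate block, and between hcRED and Mock 1 did in each, DUSP8 in all 4; with each library left out in turn the counts stayed at 1 and 0. No call reversed its direction. Library totals alone shifted the median of all genes by -0.10 with BRSK2 and by -0.04 with BRSK1. Counts over all genes moved most: with BRSK2 from 1325 to between 346 (without BRSK2 replicate 3) and 3001 (library totals), with BRSK1 from 1089 to between 133 (hcRED alone) and 1999 (replicate block), between the kinases from 59 to between 7 (without BRSK2 replicate 3 or BRSK1 replicate 1) and 267 (replicate block), and between hcRED and Mock from 5 to between 0 and 434 (replicate block). The labels do not say whether the shared numbers pair the libraries, and the main fit did not use them. Of 12 same-numbered combinations 10 had a positive correlation of their deviations from the group mean (r from -0.05 to 0.16), 2 of them over 0.1. In groups of 2 libraries the deviations mirror each other, so values with hcRED or Mock are not separate evidence. BRSK2 and BRSK1 were at 0.16, 0.0004 and 0.02, and BRSK1 and Mock at 0.14 (replicate 2) and 0.06 (replicate 3). BRSK2 and BRSK1 libraries of different numbers lay between -0.12 and 0.10. Whether the libraries are paired was not settled. If they are, the main fit ignores it, and the fit with the block called more genes in every comparison (2153 with BRSK2). DUSP6 fell below the filter in some alternatives. Depth limits DUSP6 and, less, DUSP2, DUSP4, DUSP5 and DUSP10, whose counts were under 120 in each library.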
